A study of Mus musculus with 3 samples.

Results

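Trans di-tags that join 2 captured regions on different chromosomes were examined in 3 Capture Hi-C (CHi-C) libraries of mouse, named Samples 3, 4 and 5. A di-tag is a read pair whose reads come from the ends of 2 ligated restriction fragments, so each one records a single ligation, and in CHi-C baits pull down the ligation products of chosen loci before sequencing. A captured bin was taken as a 10 kb bin of chromosomes 1 to 19 whose number of di-tag ends reached the 90th percentile of covered bins in each of the 3 libraries with duplicates removed, and a member is a di-tag that joins captured bins of different chromosomes. There were 17920 captured bins among 227422 covered ones, and the members were 326107 of 9376907 di-tags in Sample 3 (3.48%), 289223 of 8596799 in Sample 4 (3.36%) and 296555 of 8821161 in Sample 5 (3.36%).

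The labels give embryonic stem cells of strain C57BL/6 as the cell type of all 3 libraries and name no treatment. They put all of them in 1 group, so no condition is compared with another. The cells were fixed with formaldehyde, their chromatin was cut with HindIII, and ends were marked with biotin and ligated before capture. Sample 3 stands apart in its labels, because its source field reads foetal liver cells although its cell type field and the text of the study give embryonic stem cells. Di-tags carry no expression by which the cell type could be checked, so results are given for each library, or with and without Sample 3. No label says whether the libraries came from separate cultures, and the spread between them may be technical.

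Chromosomes occupy separate territories in the nucleus, and a trans contact joins loci of different territories. Mouse chromosomes are acrocentric, so the first bases of every assembled chromosome lie next to a centromere, and centromeric heterochromatin of several chromosomes can gather in chromocentres, while active ribosomal RNA gene arrays gather in nucleoli. Trans di-tags also include ligations between fragments that were not held together in a nucleus, and can include di-tags with an incorrectly mapped read. A list of di-tags does not tell these kinds apart.

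The captured bins were selected on their coverage, which is therefore described without a test. The percentile lay at 178 ends for Sample 3, at 151 for Sample 4 and at 152 for Sample 5. At least this many ends fell in 22648, 22729 and 22831 bins, of which 4728, 4809 and 4911 missed the level of another library and were left out. Captured bins with exactly the lowest accepted number of ends numbered 67, 46 and 60, and the bins with 1 end fewer numbered 154, 225 and 237. Within the captured bins the median was 323, 263 and 261 ends and the highest 6049, 6637 and 6957. They held 35.9%, 31.4% and 30.3% of all di-tag ends. Captured bins were joined in cis more often than in trans, by 653395, 483731 and 431680 di-tags, or 2.00, 1.67 and 1.46 cis di-tags per member.

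Single pairs of captured regions were almost never seen more than once. Among 150882829 possible trans pairs of 10 kb captured bins, members of Samples 3, 4 and 5 fell on 322985, 287095 and 294409 pairs. Of these pairs 99.1%, 99.4% and 99.4% held 1 di-tag. The mean was 0.00216, 0.00192 and 0.00197 members per possible pair. An expected count was set for each pair from the coverage of its bins, scaled so that expected counts add up to the members of a library. At this depth 1 di-tag in a pair is far above its expectation without being evidence of a repeated contact, so recurrence between libraries was counted.

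Pairs of 10 kb bins seen in 2 given libraries were close to the number that coverage gives. Samples 4 and 5 shared 988 pairs against 903 expected, a ratio of 1.09 with an exact Poisson 95% interval from 1.03 to 1.16. Samples 3 and 4 shared 1008 pairs against 932 expected (ratio 1.08, interval 1.02 to 1.15), and Samples 3 and 5 shared 1055 against 940 (ratio 1.12, interval 1.06 to 1.19). These intervals and those below cover counting error only, since the di-tags carry no molecular identifiers. Pairs seen in all 3 libraries numbered 37 where 7.96 were expected, a ratio of 4.65 (interval of the count, 26.1 to 51.0). However, 34 of the 37 included one of 10 captured bins at the start of chromosome 11, between 3020001 and 3190000 of mouse build mm9. Without these 10 bins 3 pairs recurred and 3.16 were expected.

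The start of chromosome 11 holds the 5 most covered captured bins of every library. These are the bins that start at 3030001, 3050001, 3060001, 3070001 and 3090001, with between 4118 and 6049 di-tag ends each in Sample 3, 4579 and 6637 in Sample 4, and 4465 and 6957 in Sample 5. Together the 10 bins held 4212, 4711 and 4844 member ends, where coverage gave 2836, 3237 and 3385. They made up 0.458%, 0.590% and 0.601% of the coverage of captured bins and took part in 1.29%, 1.63% and 1.63% of members. The bins with the most recurring pairs were those from 3070001 with 10 pairs, from 3030001 and 3060001 with 7 each, and from 3050001 and 3090001 with 4 each, all on chromosome 11, together with the bin from 3070001 to 3080000 on chromosome 17 with 6. This bin of chromosome 17 was itself among the less covered captured bins, with 212, 189 and 201 ends.

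**Figure D1:**
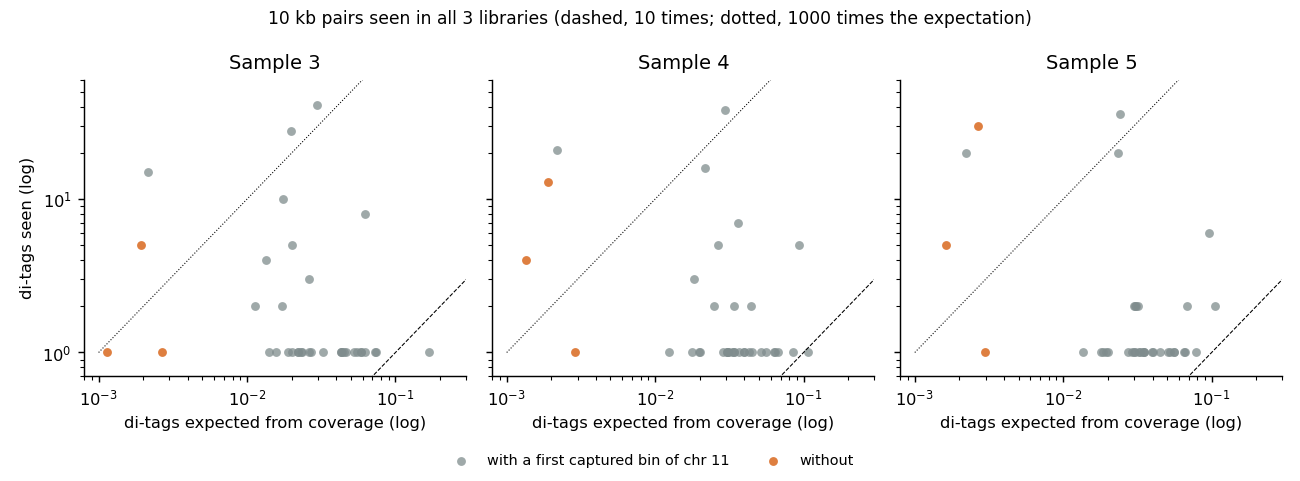
Each point is 1 of the 37 pairs of 10 kb bins seen in all 3 libraries, with the di-tags expected from coverage on the x axis and the di-tags seen on the y axis, both on log scales, and with pairs that include the start of chromosome 11 in grey. In each library most pairs sit at 1 di-tag, and every point above 10 di-tags lies at 739 times the expectation or more (the dotted line marks 1000 times).

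The recurring pair with the most di-tags joined the bin from 33070001 to 33080000 of chromosome 5 with the bin from 3030001 to 3040000 of chromosome 11. It held 41 di-tags in Sample 3, 38 in Sample 4 and 36 in Sample 5, where coverage gave 0.0294, 0.0295 and 0.0241. All 3 libraries were thus high and close to one another, though linking di-tags within 100 bp at both ends left 12, 8 and 9 separate groups. The same bin of chromosome 11 was joined to the bin from 3070001 to 3080000 of chromosome 17 by 28, 16 and 20 di-tags, against 0.0197, 0.0216 and 0.0235 expected. This second pair, which connects the assembled starts of both chromosomes, was highest in Sample 3 and lowest in Sample 4, and its di-tags formed 10, 10 and 6 such groups. The di-tags of these pairs carried few exact copies, with a mean of 1.27, 1.11 and 1.03 copies in the lists with duplicates retained for the pair with chromosome 5 and 1.25, 1.00 and 1.05 for the pair with chromosome 17. Over all members the mean was 10.2, 8.90 and 8.14 copies. Few copies were not particular to pairs with many groups. The pair of chromosomes 17 and 18 below, with 1 group in each library, had 1.2, 1 and 1.1 copies.

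Of the recurring pairs without chromosome 11, the most frequent joined the bin from 84680001 to 84690000 of chromosome 17 with the bin from 7830001 to 7840000 of chromosome 18. Its di-tags numbered 5, 13 and 30 in Samples 3, 4 and 5. Counted as di-tags, the libraries therefore differed by more than their depth, though linking di-tags within 100 bp at both ends left 1 group in each. In every library all of these di-tags had the same position on chromosome 18, to the base, while their positions on chromosome 17 spread over 104, 243 and 302 bp. Chromosome 6 from 117890001 to 117900000 was joined to chromosome 8 from 123190001 to 123200000 by 1, 4 and 5 di-tags, which all lay within 100 bp of one another in steps. A pair of chromosomes 4 and 14, from 118300001 to 118310000 and from 32500001 to 32510000, had 1 di-tag in each library. The remaining pair named by the rule joined chromosome 11 from 3090001 to 3100000 with chromosome 17 from 39980001 to 39990000, with 8, 5 and 6 di-tags against 0.0623, 0.0933 and 0.0967 expected. No gene is named for these bins, since the gene tables used here are of another build.

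Within a library, pairs were called when they held at least 2 di-tags and more than coverage gave in a Poisson test with an adjusted p under 0.05 over all possible pairs. At 10 kb, 215 pairs were called in Sample 3 (1.42e-04% of possible pairs), 163 in Sample 4 (1.08e-04%) and 154 in Sample 5 (1.02e-04%), with a median of 3 di-tags. Only 4 pairs were called in all 3 libraries, and 5 in both Samples 4 and 5. They were the pairs of chromosomes 5 and 11, 11 and 17, and 17 and 18 described above, and a further pair of the chromosome 17 start bin with chromosome 11 from 3020001 to 3030000, which held 15, 21 and 20 di-tags in 1, 2 and 1 groups within 100 bp. By contrast, 207, 156 and 148 of the called pairs had no di-tag at all in either of the other libraries.

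Most calls rested on di-tags with nearly equal positions. Di-tags of a pair were put in 1 group where they could be linked in steps of at most 100 bp at both ends. De-duplication had removed only di-tags identical at both ends. All di-tags of a called 10 kb pair formed 1 such group in 199 of 215 pairs in Sample 3, 154 of 163 in Sample 4 and 147 of 154 in Sample 5. In 202, 152 and 145 of all called pairs at least 1 end had the same base position in every di-tag. Of the pairs that formed 1 group, 2, 3 and 3 were seen in another library, while of the other called pairs 6 of 16, 4 of 9 and 3 of 7 were. With 1 di-tag kept per group, the members fell by 0.630%, 0.512% and 0.507%, the calls by the same test numbered 5, 3 and 2, and 2 pairs were called in all 3 libraries. With the start of chromosome 11 left out as well, 1, 0 and 0 pairs were called. For the calls, the grouping of near-equal positions and the removal of the chromosome 11 start were chosen after the data were seen, and their part in the calls is given only by these counts.

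Carry-over from one library to the others gave the same picture. The 2751 pairs with at least 2 di-tags in Sample 3 held 130 di-tags in Sample 4, where 14.1 were expected, and 145 in Sample 5, where 14.4 were expected, ratios of 9.24 and 10.1. Pairs chosen in Sample 4 (1841) and Sample 5 (1856) had ratios between 12.2 and 13.8 in the libraries not used to choose them. Without Sample 3, pairs chosen in Sample 4 held 138 di-tags in Sample 5 against 11.3 expected. Few pairs carried these counts, as the 4 pairs called in all libraries held 38, 16, 21 and 13 of the 130 di-tags. Without the start of chromosome 11 the 6 ratios lay between 2.06 and 9.21, and 5 of the intervals, which treat di-tags as independent, lay above 1. The pair of chromosomes 17 and 18 above, with 1 group in each library, then held much of the count. Its share was 5 of 11 and 5 of 10 di-tags read in Sample 3, 13 of 17 and 13 of 22 in Sample 4, and 30 of 38 and 30 of 41 in Sample 5. With 1 di-tag per group they lay between 4.36 and 8.10, all with intervals above 1. With both changes the ratios lay between 0.412 and 3.18, from 1 to 5 di-tags each, and 5 of the 6 intervals held 1.

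At 100 kb the 17920 bins fell in 8804 wider bins with 36550646 possible trans pairs. Pairs seen in all 3 libraries numbered 1009 against 784 expected from coverage, a ratio of 1.29, and 727 of them included the start of chromosome 11. Among the pairs shared by 2 given libraries the ratios were 0.983 for Samples 3 and 4, 0.983 for Samples 3 and 5 and 0.961 for Samples 4 and 5. Without the start of chromosome 11 the ratio for all 3 libraries was 0.819, below that given by coverage. Of the 1009 pairs, 418 held 1 di-tag in each library and 17 held at least 3 in each. The called pairs numbered 95 in Sample 3 (2.60e-04% of possible pairs), 84 in Sample 4 (2.30e-04%) and 72 in Sample 5 (1.97e-04%), of which 3 were common to all libraries and 4 to Samples 4 and 5.

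The 2 most frequent 100 kb pairs contain the 10 kb pairs above. The first 100 kb of chromosomes 11 and 17, from 3000001 to 3100000 on both, were joined by 62, 50 and 46 di-tags against 0.0972, 0.125 and 0.140 expected, and the same part of chromosome 11 was joined to chromosome 5 from 33000001 to 33100000 by 58, 48 and 41 di-tags. Its pair with chromosome 1 from 90100001 to 90200000 held 29, 19 and 14 di-tags, where coverage gave 3.76, 4.05 and 4.50. This excess was between 3.11 and 7.72 times the expectation, far smaller than for the first pairs. Chromosome 17 from 39900001 to 40000000 had 21, 5 and 9 di-tags with it against 0.452, 0.467 and 0.456, most of them in Sample 3. Near the assembled start of chromosome 8, from 3600001 to 3700000, the counts were 5, 9 and 5 against 1.07, 2.06 and 2.19.

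The member ends of single bins were compared between libraries next. Hub bins are those that take part in more members than their coverage gives. For each captured bin the member ends were divided by the number expected from coverage, after adding 0.5 to both. The middle of the ratios was near 1 (medians 0.970, 0.976 and 0.974), with a 5th percentile of 0.570, 0.622 and 0.628 and a 95th of 1.81, 1.80 and 1.79. Across the 17920 bins, which share the same baits and the same bin coverage rule, the log2 ratios of Samples 4 and 5 correlated with Pearson's r = 0.671, those of Samples 3 and 4 with 0.644 and those of Samples 3 and 5 with 0.634, given as a description. The 180 bins with the highest ratio in 1 library were all above 1 in each other library, with medians between 1.95 and 2.08 there. The 180 bins with the lowest ratio, with medians of 0.394, 0.464 and 0.461 in the choosing library, had medians between 0.690 and 0.756 in the others, where 11 to 24 of them were above 1.

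limma's moderated test against a log2 ratio of 0 across the 3 libraries, with Benjamini-Hochberg adjustment and a mean of at least 1.5-fold, called 1746 captured bins higher (9.74% of bins tested) and 898 lower (5.01%). Without Sample 3 the counts were 1818 and 924. The bins called higher were less covered than the rest, with a median of 224, 188 and 187 ends against 323, 263 and 261 over all captured bins. The log2 ratio fell with log2 coverage (r = -0.268, -0.398 and -0.385 across bins), to which the member ends themselves belong. Member ends also counted towards the captured level of 178, 151 and 152 ends. Bins near this level could therefore enter the set through the excess tested here, which favours calls of higher. The same holds for the bins with the highest ratios above, and how many calls it made was not tested. With the test limited to the 1410 bins that had at least 50 expected member ends in every library, 8 were called higher and 98 lower.

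**Figure D2:**
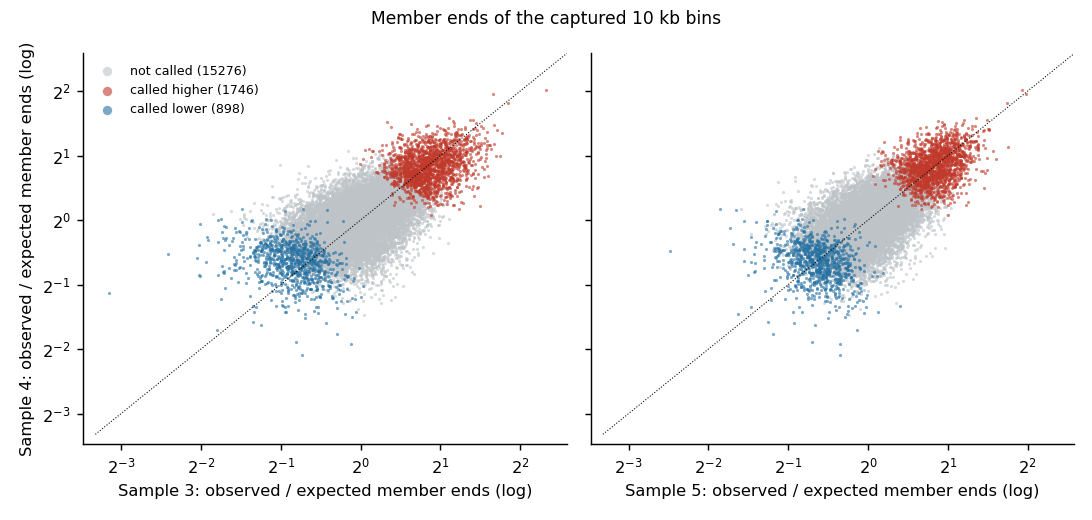
Each point is 1 of the 17920 captured bins, with the ratio of observed to expected member ends of Sample 3 (left) or Sample 5 (right) on the x axis and of Sample 4 on the y axis, all on log scales. The 1746 bins called higher and the 898 called lower lie along the dotted line of equal ratios in both panels. The call was made on these 3 libraries and favours bins with similar ratios, so this is a description only.

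The called bins differed from the rest in the partners of their trans di-tags. Among all captured bins a median of 19.8%, 16.9% and 16.3% of trans ends had a captured partner, and among the bins called higher 36.4%, 30.5% and 29.8% did. Their share of cis ends differed less, at 50.0%, 35.8% and 32.2% against 52.8%, 37.6% and 33.1%. In the bins called lower 12.6%, 11.4% and 10.9% of trans ends had a captured partner. Because the calls used the member ends themselves, these shares are a description of the called bins. The part of bait density and capture efficiency in them was not tested, as bait positions were not used here. By chromosome, the share of captured bins called higher ran from 6.08% on chromosome 7 to 14.8% on chromosome 8. Chromosome 8 held more member ends in Samples 4 and 5 (43870 and 44996) than in Sample 3 (40837). Every other chromosome held fewer in Samples 4 and 5 than in Sample 3, a difference that was not tested.

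The bin whose lowest ratio over the libraries was highest was the start bin of chromosome 17, from 3070001 to 3080000. It had 106, 85 and 88 member ends where 20.9, 20.6 and 22.7 were expected, and the adjusted p by limma was 7.41e-08. Its 212, 189 and 201 ends include these, and without them it would have missed the captured levels of 178, 151 and 152. It thus entered the set only through the ends tested here, and its p is not independent of that choice. The bin from 33070001 to 33080000 of chromosome 5 followed with 112, 99 and 78 member ends against 30.8, 27.7 and 22.9 (adjusted p by limma 5.03e-07). Without its member ends this bin would have missed the level of Sample 5, where it had 206 ends in all against 152. Both had few cis ends, 10.4%, 3.704% and 6.97% of all ends of the bin on chromosome 17 and 22.4%, 17.1% and 16.99% of the one on chromosome 5. Much of their excess was with the start of chromosome 11, which took 62, 50 and 46 and then 58, 48 and 41 of these di-tags. When those 10 bins were left out, the mean log2 ratio was 0.91 for the bin of chromosome 17 and 0.80 for the bin of chromosome 5, compared with 2.09 and 1.80, and both were still called. With 1 di-tag per group within 100 bp it was 1.44 and 1.24.

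The bin from 39980001 to 39990000 of chromosome 17, for which the placement of reads was not tested, was a hub of another kind. It had 308, 299 and 292 member ends where 97.04, 77.1 and 73.7 were expected, spread over 285, 293 and 280 different partner bins, so that hardly any pair repeated. Its ratio was 3.16, 3.86 and 3.94 (adjusted p by limma 2.91e-10), and leaving out the start of chromosome 11 gave a mean log2 ratio of 1.82 against 1.86. Of all its ends only 4.77%, 3.82% and 3.37% were cis, the lowest shares among the 6 highest hub bins apart from the start bin of chromosome 17 in Sample 4. The other highest hub bins were on chromosome 2 from 71600001 to 71610000 with 51, 68 and 61 member ends against 18.9, 22.97 and 21.4, on chromosome 10 from 57670001 to 57680000 with 62, 62 and 59 against 23.1, 23.003 and 20.5, and on chromosome 2 from 79010001 to 79020000 with 50, 46 and 49 against 17.8, 17.1 and 16.9. In these 3 bins the ratios lay between 2.63 and 2.92 in every library, and nearly every partner was seen once. Without their member ends these 3 bins would have missed the captured level of 178 ends in Sample 3, where they had 202, 234 and 190 ends in all. The hub bin of chromosome 17 from 39980001, with 986, 706 and 652 ends in all, would have reached the level in every library.

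The lowest bins were on chromosome 18 from 80490001 to 80500000 with 7, 8 and 8 member ends where 18.6, 25.0 and 19.8 were expected, on chromosome 2 from 170220001 to 170230000 with 9, 10 and 10 against 20.2, 24.2 and 23.9, on chromosome 7 from 126320001 to 126330000 with 14, 14 and 12 against 29.7, 30.5 and 30.1, and on chromosome 2 from 153800001 to 153810000 with 5, 10 and 12 against 17.998, 24.1 and 25.3. All 4 lay in part 9 or 10 when the covered length of a chromosome was divided into 10 equal parts from the centromere. Parts 9 and 10 held 2451 and 2600 of the 17920 captured bins. Part 10 held 141 of the 898 bins called lower, but also 301 of the 1746 called higher. Over all captured bins of part 10 the ratios of member ends to those from coverage were 1.01, 0.974 and 0.984, and over those of part 1 they were 1.09, 1.05 and 1.04.

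The partners of the hub bin in the middle of chromosome 17, examined after its ratio was known, differed between libraries. For this question and the following ones, expected counts were fitted to each bin's own total of member ends, so that a bin that is high overall is not counted as an excess with every partner. In Sample 3 the bin had 53 di-tags with chromosome 19 where 11.5 were expected, 25 with chromosome 16 against 10.3, 24 with chromosome 12 against 11.6 and 13 with chromosome 18 against 7.24, but 16 with chromosome 15 against 15.4. Chromosomes 12, 15, 16, 18 and 19 are those that carry ribosomal RNA gene arrays in many mouse strains. Jointly they had 131 di-tags against 56.0 in Sample 3, a ratio of 2.34 (interval 1.96 to 2.78), 56 against 52.1 in Sample 4 (1.07, interval 0.811 to 1.39) and 62 against 50.3 in Sample 5 (1.23, interval 0.944 to 1.58). The excess was thus clear of the counting error in Sample 3 alone, and the difference between libraries was not tested, since Sample 3 is 1 library.

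**Figure D3:**
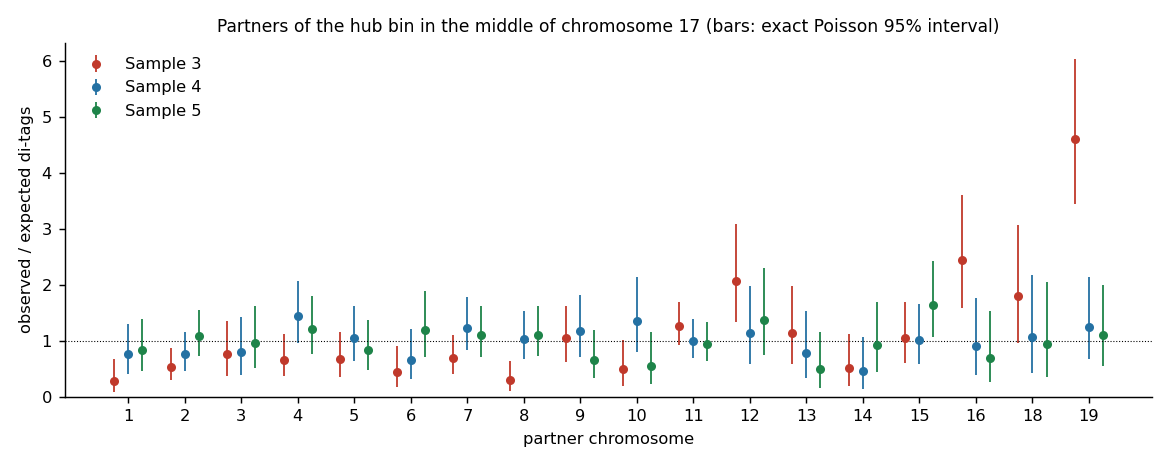
The y axis gives observed over expected di-tags between the hub bin in the middle of chromosome 17 and all captured bins of each other chromosome on the x axis, in Samples 3 (red), 4 (blue) and 5 (green), with exact Poisson 95% intervals as bars. Sample 3 reaches 4.60 with chromosome 19 and 2.44 with chromosome 16, where Samples 4 and 5 lie near 1.

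The ratios were higher towards the centromere. With captured bins in the first 10 Mb of chromosomes 12, 15, 16, 18 and 19 the hub bin had 66 di-tags against 9.40 in Sample 3 (ratio 7.02, interval 5.43 to 8.93), 21 against 8.17 in Sample 4 (2.57, interval 1.59 to 3.93) and 12 against 7.67 in Sample 5 (1.56, interval 0.808 to 2.73). With the first 10 Mb of the other chromosomes, leaving out chromosome 11, it had 17 against 7.19, 9 against 7.01 and 8 against 7.01, and the interval excluded 1 in Sample 3 (1.38 to 3.79). With the first bins of chromosome 11 the hub bin had 21 di-tags against 2.20 in Sample 3 (ratio 9.56, interval 5.92 to 14.6). In Sample 4 it had 5 against 2.69 (1.86, interval 0.603 to 4.33, which held 1). In Sample 5 it had 9 against 2.63 (3.42, interval 1.56 to 6.49). The recurring pair with chromosome 11 from 3090001, named above, held 8, 5 and 6 of these di-tags. Over the 10 pairs among the 5 ribosomal RNA array chromosomes the mean log2 ratio was 0.04, 0.01 and -0.02, against -0.00313, -0.00118 and 0.000535 over the other 161 pairs, a difference that was not tested.

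Pairs of whole chromosomes were then compared with the expectation. limma called 0 of the 171 pairs of chromosomes (0% of pairs tested) at an adjusted p under 0.05, while 13 had an unadjusted p under 0.05. The smallest adjusted p was 0.410. The count depended on the settings, since 9 pairs were called without Sample 5, 4 with expectations from coverage, 2 without the top 1% of captured bins by coverage and 0 without Sample 3. The SD of the log2 ratio over the pairs was 0.07 in Sample 3 and 0.04 in both Sample 4 and Sample 5, and the ratios of Samples 4 and 5 correlated across pairs with r = 0.145, those of Samples 3 and 4 with 0.286 and those of Samples 3 and 5 with 0.0586. The ratio had the same sign in all libraries for 58 of the 171 pairs, a count that was not set against random signs. Chromosomes 17 and 19 had the highest mean, with 1516 di-tags where 1149 were expected in Sample 3, 1034 against 933 in Sample 4 and 929 against 923 in Sample 5. The mean log2 ratio was 0.19 ± 0.20 (SD, n = 3), with all 3 libraries above 0 and most of the excess in Sample 3 (adjusted p by limma 0.573). The hub bin above contributed 53 of the 1516.

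**Figure D4:**
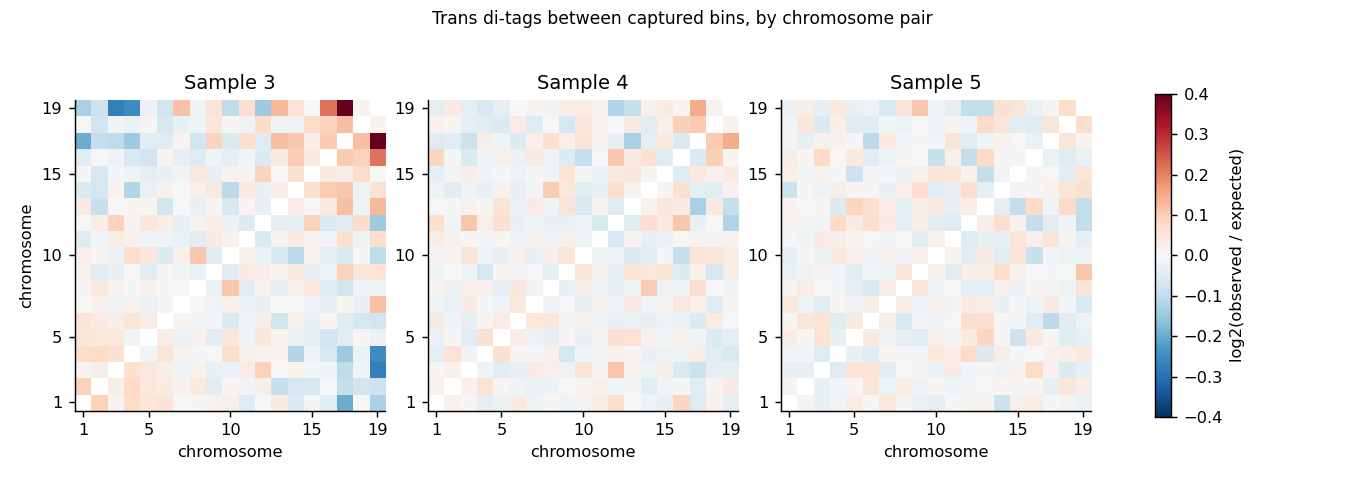
Each square is 1 pair of chromosomes 1 to 19 on the x and y axes, coloured by the log2 of observed over expected di-tags in Samples 3, 4 and 5. Sample 3 has the strongest squares, among them chromosomes 17 with 19 at 0.40 and 3 with 19 at -0.27, and no square of Sample 4 or 5 is beyond 0.15 in size.

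The next highest means were 0.09 ± 0.04 for chromosomes 17 and 18, 0.07 ± 0.13 for 16 and 19 and 0.06 ± 0.07 for 3 and 12 (SD, n = 3 each). The lowest were -0.12 ± 0.02 for chromosomes 12 and 19, -0.12 ± 0.14 for 3 and 19, -0.09 ± 0.15 for 4 and 19 and -0.09 ± 0.10 for 1 and 17. The pair of 12 and 19 was at -0.14, -0.12 and -0.10 on the log2 scale (adjusted p by limma 0.410). Without Sample 3 the means were smaller in size for most of these pairs, at 0.08 for 17 and 19, 0.08 for 17 and 18, 0.05 for 3 and 12 and -0.01 for 16 and 19. The lowest pairs were then at -0.11 for 12 and 19, -0.04 for 3 and 19, -0.01 for 4 and 19 and -0.03 for 1 and 17. The difference in covered length of the chromosomes was set beside the ratio, with no test. In Sample 3 the 57 pairs that differed most in covered length, by 46.0 Mb to 136 Mb, had a mean log2 ratio of -0.04. The 57 pairs that differed least and the 57 in between both had 0.02 in this library. In Sample 4 the means of the most, least and intermediate pairs were -0.01, 0.01 and 0.00410, and in Sample 5 they were -0.01, -0.00378 and 0.01.

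Members were also counted by position along the chromosome. With 1033 captured bins within 10 Mb of the first covered position of a chromosome and 2071 within 10 Mb of the last, di-tags that joined the centromere-proximal ends of different chromosomes numbered 2624 against 1352 in Sample 3 (ratio 1.94, interval 1.87 to 2.02), 1309 against 1157 in Sample 4 (1.13, interval 1.07 to 1.19) and 1327 against 1165 in Sample 5 (1.14, interval 1.08 to 1.20). Those that joined distal ends numbered 6938 against 4766 (1.46), 4226 against 3978 (1.06) and 4324 against 4009 (1.08). A centromere-proximal end with a distal end was seen less often than expected, by 3177 against 5257 (0.604), 4077 against 4441 (0.918) and 4299 against 4461 (0.964). The direction was the same in all 3 libraries for each kind of pair. With 3 libraries the exact two-sided sign-flip test cannot give a p below 0.25, and no p is given.

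The pattern was larger in size in Sample 3 than in Samples 4 and 5, a difference that was not tested, since Sample 3 is 1 library. In it the centromere-proximal ratio was above 1 for each of the 19 chromosomes, between 1.40 and 2.55, the ratio of opposite ends was below 1 for all of them, and that of distal ends was above 1 for 18, with chromosome 19 at 0.825. In Samples 4 and 5 the centromere-proximal ratio was above 1 for 13 and 17 chromosomes, the ratio of distal ends was above 1 for 15 and 18, and that of opposite ends was below 1 for 14 and 13. Without the start of chromosome 11 the centromere-proximal ratios were 1.83, 1.04 and 1.09, and the interval of Sample 4 then held 1 (0.9754 to 1.11). The ratio of opposite ends in Sample 5 was then 0.982, with an interval that held 1 (0.951 to 1.01). Without the top 1% of captured bins by coverage the intervals of the same readings also held 1, at 1.06 (0.988 to 1.13) and 0.980 (0.947 to 1.01). Sample 3 also had the lowest share of trans di-tags, 51.96% against 67.4% and 71.6%, and the source label that differs. The part of either in the size of the pattern was not tested, and with 1 such library they cannot be told apart.

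**Figure D5:**
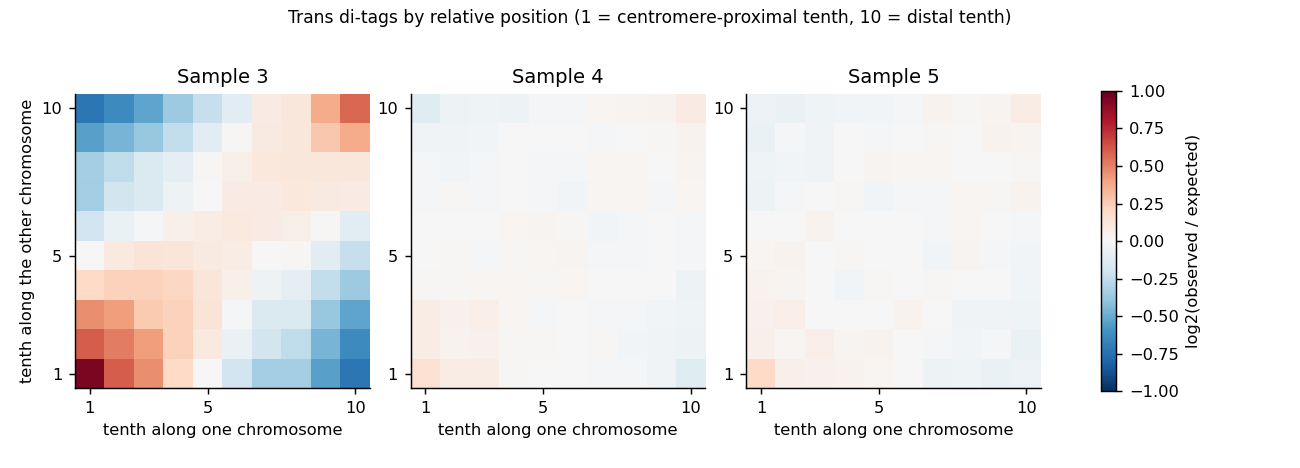
Captured bins were divided into 10 equal parts of the covered length of their chromosome, from centromere-proximal (1) to distal (10) on both axes, and colour gives the log2 of observed over expected trans di-tags in Samples 3, 4 and 5. In Sample 3 the ratio runs from 1.92 for part 1 with part 1 to 0.605 for part 1 with part 10, and in Samples 4 and 5 the same corners are at 1.11 and 0.922, and 1.15 and 0.958.

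The same measure in trans di-tags with no captured end gave ratios in the same directions. Observed over expected di-tags were 1.47, 1.05 and 1.03 for centromere-proximal ends, 1.36, 1.02 and 1.01 for distal ends and 0.739, 0.979 and 0.987 for opposite ends. The interval of distal ends in Sample 5 held 1 (0.999 to 1.03). In Sample 3 the intervals of captured and uncaptured di-tags did not overlap for any of the 3 kinds, with 1.87 to 2.02 against 1.45 to 1.49 for centromere-proximal ends. In Sample 4 they overlapped for centromere-proximal and distal ends, and in Sample 5 for opposite ends. Without the start of chromosome 11 the captured centromere-proximal ratio of Sample 4, 1.04, was below the uncaptured one. Those of Samples 3 and 5, 1.83 and 1.09, stayed above it. The captured start of chromosome 11 was joined to the first 10 Mb of other chromosomes by 660 di-tags against 255 in Sample 3, 393 against 271 in Sample 4 and 363 against 276 in Sample 5, and to distal ends by 319 against 499, 515 against 548 and 475 against 560. With the first 10 Mb of chromosomes 12, 15, 16, 18 and 19 its ratio was 2.07, 0.918 and 0.966, and with that of the other chromosomes 3.20, 2.00 and 1.66, which includes the 62, 50 and 46 di-tags with the start bin of chromosome 17.

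In Hi-C, active and inactive chromatin each tend to contact their own kind, which shows as 2 classes of regions. In 1609 of 1995 bins of 1 Mb with at least 50 member ends in each library, classes were taken from the first eigenvector of the contact profiles of 1 library and read in the other libraries. The ratio to the expectation was 1.02 to 1.07 for pairs within the lowest 20% and within the highest 20% of the eigenvector, and 0.936 to 0.981 for pairs between them, in all 6 readings. With classes from Sample 4 read in Sample 5 the values were 1.02, 1.02 and 0.981. The eigenvector followed the number of captured bins per 1 Mb bin with r = 0.705, 0.756 and 0.755. Its sign was set to make this r positive. The profiles had 0.5 added to observed and expected counts, so where counts are low they depend on the expectation, and part of this r can be built in. The part of bait density in the classes, and whether they match active and inactive chromatin, was not tested.

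Regions where trans contacts are known from other work gave few members. Windows of 1 Mb were set around the Hox clusters, which hold developmental transcription factor genes under Polycomb repression in stem cells, and around clusters of histone genes. They were placed from general knowledge of build mm9, not from a table of it. The HoxA (chromosome 6, from 52000001), HoxB (chromosome 11, from 96000001), HoxC (chromosome 15, from 102000001) and HoxD (chromosome 2, from 74000001) windows were joined to one another by 9 di-tags in Sample 3 against 7.27 expected, 6 in Sample 4 against 6.95 and 19 in Sample 5 against 6.69. The interval held 1 in Samples 3 and 4 and lay above 1 in Sample 5 (ratio 2.84, interval 1.71 to 4.43), with 8 of its 19 di-tags between HoxB and HoxC, 5 between HoxA and HoxC and 4 between HoxA and HoxB. None of these lay within 100 bp of another. The Hist1 windows of chromosome 13 and the Hist2 window of chromosome 3 were joined by 5, 4 and 0 di-tags against 2.58, 1.73 and 1.71, within counting error in each library. Of 12 captured bins in the HoxA window 4 were called lower and 0 higher as hubs, and of 13 in the HoxD window likewise 4 and 0, where 5.01% of all captured bins were called lower. The HoxB window had 4 bins called higher and 3 lower of 35, and the HoxC window 6 higher and 3 lower of 38, where 9.74% of all captured bins were called higher. Of 40 captured bins in the Hist1 windows 2 were called higher and 0 lower, and of 24 in the Hist2 window 2 and 1. The protocadherin window of chromosome 18 held 9 captured bins, with 0 called in either direction.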

How the data were processed

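Per the labels and methods, the authors processed each library with HiCUP, which truncates reads at the ligation junction, maps them separately (Bowtie 1.1.0 and build mm9 in the submitters' processing notes), pairs them, filters artefacts and removes identical di-tags. The deposited lists give chromosome, position and strand of both reads, without a header, and the unit counted was di-tags (other than a measured level). Lists with duplicates removed were used, and those with duplicates retained only for copies per di-tag. Members and lists were chosen with earlier results of these data known.

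Expected counts of a pair were proportional to the product of its bins' di-tag ends, or fitted iteratively to member totals. Calls used Poisson upper tails with Benjamini-Hochberg adjustment. Chromosome pairs and hub bins (at least 10 expected member ends, pseudocount 0.5) were tested on the log2 scale with limma 3.58.1 in R 4.3.3, lmFit and eBayes with trend. Counts were made with Python 3.11.15. The functions were tested on simulated data. Named pairs had the highest smallest count over libraries (6 per bin size, 1 per 1 Mb square), named hub bins the most extreme ratios (6 and 4) and named chromosome pairs the extreme means (4 and 4).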

Additional observations from a re-analysis of the deposited data

How the results depend on the processing

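For 10 kb pairs seen in all libraries the ratio to the expectation of 4.65 became 2.48 with fitted totals, 2.40 with 20 kb bins, 1.89 without the top 1% of captured bins by coverage and 0.949 without the start of chromosome 11. With 1 library left out, which asks for pairs seen in both others, it was 1.08 to 1.12. For 100 kb pairs the ratio of 1.29 became 1.94 with the 95th percentile, 0.927 with fitted totals, 0.850 without the top 1%, 0.819 without the start of chromosome 11 and 0.961 to 0.983 with 1 library left out (0.961, 0.983 and 0.983). The mean number of calls per library at 10 kb, 177, was 63.3 with the 95th percentile and 3.33 with 1 di-tag per group within 100 bp, and at 100 kb 83.7 became 38, 3 and, at an adjusted p under 0.01, 48.3. The 95th percentile also leaves fewer possible pairs to test. Of the 4 pairs called in all libraries at 10 kb, the counts were 2 with 1 di-tag per group, 1 with the 95th percentile, 1 without the start of chromosome 11 and 2 without the top 1%, and of 3 at 100 kb, 0 with the 95th percentile and 1 without the start of chromosome 11. The mean carry-over ratio of 12 became 2.97 with the 95th percentile, 8.58 with fitted totals, 6.16 with 1 di-tag per group and 4.49 without the start of chromosome 11. Hub bins called higher and lower were 8 and 98 of the 1410 tested with at least 50 expected ends. They were 308 and 444 with the 95th percentile, which leaves fewer bins to test, and 2712 and 2926 with no minimum fold. limma called 4 chromosome pairs with expectations from coverage (2 with 7, 2 with 17 and 4 with 7 lower, 8 with 14 higher), 2 without the top 1% (17 with 19 higher, 3 with 19 lower) and 0 to 9 with 1 library left out, the 9 without Sample 5. The mean log2 ratio of chromosomes 16 and 19 was -0.0105 without Sample 3, 0.112 without Sample 5 and 0.117 with expectations from coverage, and that of 17 and 18 was -0.0306 with the 95th percentile. On the log2 scale the pairs among ribosomal RNA array chromosomes exceeded the other pairs by a mean of 0.0482 with expectations from coverage and 0.0126 with fitted totals, and differed by -0.00226 without Sample 3. The class ratio, 1.09, ranged from 1.05 to 1.12 with 1 library left out. The Hox ratio, 1.65, was 1.05 without Sample 5 and the Hist1 with Hist2 ratio of 1.42 ranged from 0.967 to 2.13 with 1 library left out and was 0.461 with the 95th percentile. The alternatives without the chromosome 11 start, and that with 1 di-tag per group for results other than recurring 10 kb pairs, were chosen after seeing the data. The mean ratios for chromosome ends kept their direction under every alternative run, though some intervals of single libraries came to hold 1. No paired analysis was possible because the 3 libraries form 1 group. The causes of these changes were not tested. Depth also limits single pairs, as possible pairs outnumber members by far.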
